A study of Mus musculus with 4 samples.

Results

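The 4 Notch receptors (Notch1, Notch2, Notch3 and Notch4) and the 5 canonical ligands (Dll1, Dll3, Dll4, Jag1 and Jag2) were read from RNA-seq of cultured adult mouse muscle stem cells (MuSCs) after 1 h of BMP6. The members were taken by gene name, and each of the 9 was the name of exactly 1 of the 55267 entries. All 4 libraries came from C57BL/6N(Tg(Pax7-EGFP)Tajb) female mice aged 9 weeks, whose skeletal muscle cells were sorted for the PAX7-GFP reporter after a day in culture and grown at 3% oxygen. Every culture then spent 6 h without serum in 200 ng/mL of BMPR-1A-Fc, a soluble receptor that captures BMPs, so the controls carried that treatment too. The 2 BMP6 libraries received 100 ng/mL BMP6 and the 2 control libraries received its vehicle, 4 mM HCl with 0.1% BSA, each for 1 h. Replicate 1 of both groups is labelled as one biological batch and replicate 2 as another. How many mice stand behind a batch is not given in the sources used here, and a culture sorted on a reporter may hold other cells. In RNA from whole cultures, fewer cells that express a gene and less RNA per cell cannot be told apart.

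Notch signalling works between touching cells. A Delta-like or Jagged ligand on one cell binds a Notch receptor on its neighbour, the receptor is cut first by an ADAM protease and then by gamma-secretase, and the released intracellular domain joins RBPJ in the nucleus to switch on targets such as the Hes and Hey repressors. In muscle, Notch signalling is known for holding stem cells undifferentiated, while BMP signalling, which acts through SMAD transcription factors, also restrains differentiation. The question here was which receptors and ligands MuSCs transcribe, and whether their RNA had moved after an hour of BMP6.

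The promoter of Notch2 is shown because it is the receptor with the highest RNA level averaged over the transcript. Those of Notch3 and Jag2 are shown because they are tested members that hold matches to a SMAD motif. Each runs 5′ to 3′ on the gene's strand from 270 bases before to 30 bases from the start of its transcript (GENCODE M39 on GRCm39), and capitals mark matches to GGCGCC or CAGAC, both bound by SMADs, or to TGGGAA, the core bound by RBPJ, on either strand. No match overlaps another.
Notch2: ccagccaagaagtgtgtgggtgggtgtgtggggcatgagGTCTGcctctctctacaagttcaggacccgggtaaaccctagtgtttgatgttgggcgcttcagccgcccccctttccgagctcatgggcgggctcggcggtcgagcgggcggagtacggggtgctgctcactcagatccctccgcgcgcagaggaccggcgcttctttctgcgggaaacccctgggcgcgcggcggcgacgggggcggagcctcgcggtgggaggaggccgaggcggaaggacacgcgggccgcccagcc
Notch3: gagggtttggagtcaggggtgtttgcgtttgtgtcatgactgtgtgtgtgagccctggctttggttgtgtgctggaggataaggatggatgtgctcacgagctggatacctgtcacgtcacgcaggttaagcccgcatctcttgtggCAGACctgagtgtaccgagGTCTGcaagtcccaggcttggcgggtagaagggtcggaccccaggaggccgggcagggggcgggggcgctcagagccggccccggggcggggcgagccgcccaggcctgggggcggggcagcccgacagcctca
Jag2: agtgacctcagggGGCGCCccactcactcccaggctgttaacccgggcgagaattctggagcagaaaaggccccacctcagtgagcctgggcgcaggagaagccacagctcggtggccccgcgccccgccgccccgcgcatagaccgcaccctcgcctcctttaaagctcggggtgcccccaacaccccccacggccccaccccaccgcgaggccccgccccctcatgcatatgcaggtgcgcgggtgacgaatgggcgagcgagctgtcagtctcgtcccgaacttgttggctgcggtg
These windows are chr3:97920530-97920829 for Notch2, chr17:32385864-32386163 for Notch3 and chr12:112893408-112893707 for Jag2. Jag2 held GGCGCC (1 match), which 14.9% of 13083 promoters of tested entries held. CAGAC was matched at 2 places in Notch3 and at 1 place each in Notch2, Dll3 and Dll4, against 47.2% of all promoters with at least 1 match. TGGGAA was matched in none of the 3 windows printed and in 24.4% of all promoters. The windows of Notch1, Notch4 and Jag1 held none of these letters, which says nothing of sites elsewhere. GC content ran from 56.3% (Notch4) to 69.3% (Notch2), and the median of all promoters was 56.0%.

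On GRCm39, as the files give them, the receptors lie at chr2:26347915-26393834 (Notch1, minus strand), chr3:97920854-98057677 (Notch2, plus), chr17:32339794-32385826 (Notch3, minus) and chr17:34783242-34807477 (Notch4, plus). The ligands lie at chr17:15587616-15596238 (Dll1, minus), chr7:27992978-28001663 (Dll3, minus), chr2:119156265-119166443 (Dll4, plus), chr2:136923376-136958564 (Jag1, minus) and chr12:112871439-112893396 (Jag2, minus). Each member had 1 transcript in the files, protein-coding in GENCODE, with 34 exons in Notch1 and Notch2, 33 in Notch3, 30 in Notch4, 26 in Jag1 and Jag2, 11 in Dll1 and Dll4 and 9 in Dll3. There was therefore no switch between isoforms to compare.

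Dll1 was the most abundant member, and 6 of the 9 had a mean of at least 1 TPM (a level per transcript length, scaled to the same sum in each library, so that genes can be compared). In controls the order of mean TPM was Dll1 (30.2 ± 0.692, SD, n = 2), Notch2 (7.57 ± 0.103), Notch3 (5.19 ± 0.279), Jag1 (4.03 ± 0.152), Jag2 (2.62 ± 0.355), Notch1 (2.13 ± 0.467), Notch4 (0.183 ± 0.0161), Dll3 (0.0239 ± 0.0337) and Dll4 (listed at 0). Neighbours in this order had overlapping control values for Jag2 and Notch1 and for Dll3 and Dll4, and the other neighbours did not overlap. Dll1 stood above 67.3% of the 13128 tested entries in its control mean, Notch2 above 39.1% and Notch1 above 14%. The order in FPKM, a level per length with another scaling, was the same. Within a library FPKM and TPM differ only by a constant factor, so this was no separate check. Both levels average over a transcript, and coverage along the receptors was uneven, as given below.

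**Figure D1:**
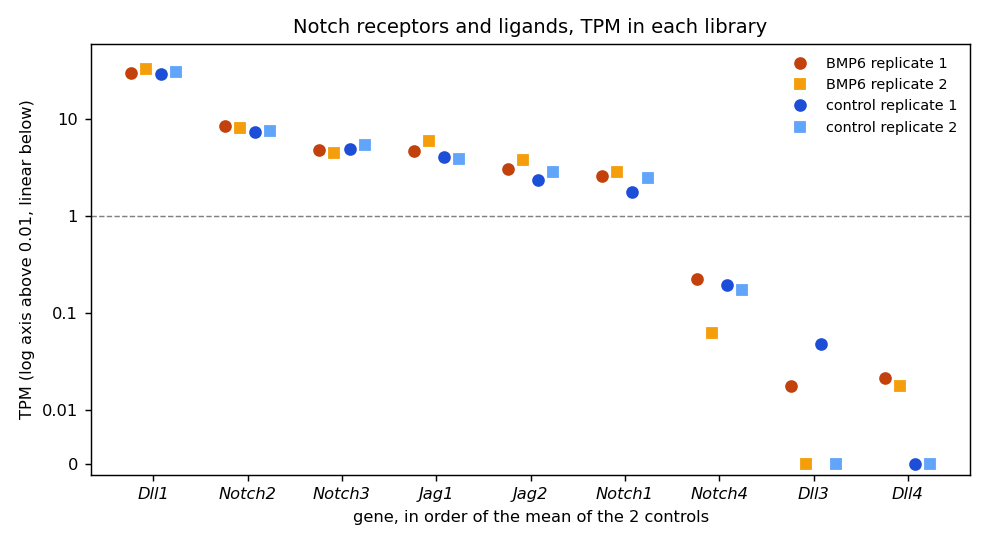
TPM of the 9 receptors and ligands (vertical axis, logarithmic above 0.01 TPM and linear below) in each of the 4 libraries, in order of the mean of the 2 controls; the dashed line is the filter of 1 TPM. Dll1 lay near 30 TPM in every library, 5 members lay between 1.80 and 8.63 TPM, and Notch4, Dll3 and Dll4 stayed at or below 0.225 TPM.

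Of the ligand RNA, Dll1 made up 81.9% in both controls and 79.4% and 77.5% in BMP6 replicates 1 and 2. Jag1 held 11.4% and 10.5% in control replicates 1 and 2, and 12.5% and 13.7% after BMP6. The summed ligands reached 38.0 and 43.2 TPM after BMP6 and 36.3 and 37.5 TPM in controls, so both BMP6 sums were above both control sums. Among receptors, Notch2 held 48.8% to 52.8% of the sum in all 4 libraries. Notch3 held 34.4% in both controls against 29.9% and 28.7% after BMP6. The summed receptors overlapped between the groups, at 16.3 and 15.6 TPM after BMP6 and 14.5 and 15.7 TPM in controls. With 2 libraries against 2, an exact permutation test cannot give a p under 0.333, so these sums were not tested.

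Notch1, the receptor best known from T cells, had 2.61 TPM in BMP6 replicate 1, 2.90 TPM in BMP6 replicate 2, 1.80 TPM in control replicate 1 and 2.46 TPM in control replicate 2. In pairs of values, replicate 1 comes first. Both BMP6 libraries lay above both controls, and the nearest gap, between BMP6 replicate 1 and control replicate 2, was small. Notch2, the receptor with the highest TPM, was at 8.63 and 8.18 TPM after BMP6 and at 7.50 and 7.65 TPM in controls, again without overlap. Notch3 went the other way, with 4.88 and 4.49 TPM after BMP6 against 4.99 and 5.38 TPM in controls. The groups did not overlap, but the values of replicate 1 were nearly level. Notch4, a receptor known mainly from endothelium, was at 0.225 and 0.0625 TPM after BMP6 and 0.194 and 0.172 TPM in controls, so the BMP6 libraries lay on either side of the controls.

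Dll1, a ligand known to oscillate in activated MuSCs, was at 30.2 and 33.5 TPM after BMP6 and 29.7 and 30.7 TPM in controls, and the groups overlapped. Jag1, the ligand mutated in Alagille syndrome, was at 4.75 and 5.92 TPM after BMP6 and 4.14 and 3.92 TPM in controls. Jag2 was at 3.04 and 3.77 TPM after BMP6 and 2.37 and 2.87 TPM in controls. In both Jagged genes the BMP6 libraries lay above the controls, with BMP6 replicate 2 the highest. Dll3, a divergent family member that does not activate receptors on neighbouring cells, was at 0.0176 TPM in BMP6 replicate 1 and 0.0477 TPM in control replicate 1 and listed at 0 in both replicates 2. Dll4, the ligand of sprouting endothelium, was at 0.0214 and 0.0178 TPM after BMP6 and listed at 0 in both controls, which rests on read numbers rebuilt from coverage of 5.02 and 4.00.

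None of the tested receptors and ligands passed the test for a change after BMP6. In limma on log2(TPM + 1), adjusted over 13128 entries, 0 of the 6 were called (a doubling or halving together with an adjusted p under 0.1), and 0 had an unadjusted p under 0.05. By the same rule 0.225% of the 10645 entries open to a call were called, all of them higher, and 0.244% of all tested entries were past the adjusted p without regard to fold. Voom on rebuilt reads without a block also gave 0 calls and 0 unadjusted p under 0.05 among the 6. The differences below are of log2(TPM + 1) and the folds are of TPM + 1, where the added 1 shrinks the change of low genes. For the 6 members, every adjusted p without a block was 1.

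Jag1 differed by 0.33 (SE 0.16, 95% interval -0.06 to 0.71), a fold of 1.25 (0.963 to 1.63) in TPM + 1, and the ratio of its mean TPM was 1.32. Within the batches it was 0.16 in replicate 1 and 0.49 in replicate 2. Jag2 differed by 0.28 (SE 0.17, -0.12 to 0.69), with 0.26 and 0.30 within the batches, the closest agreement of the 6. Notch1 differed by 0.27 (SE 0.17, -0.15 to 0.68), with 0.36 and 0.17. The upper bounds of these 3 correspond to folds of 1.63, 1.61 and 1.60, so a doubling of TPM + 1 lay outside each interval. A doubling of TPM is less than 1 on this scale, by the most in the lowest genes. With an added 0.1 in place of 1, the upper bounds were 0.84, 0.90 and 0.94 (limma), nearer to the 1 of a doubling.

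Notch2 differed by 0.13 (SE 0.13, -0.18 to 0.44) and Dll1 by 0.07 (SE 0.11, -0.19 to 0.33), and their intervals reached folds of 1.36 and 1.26. Within the batches, Notch2 had 0.18 and 0.09 and Dll1 had 0.02 and 0.12. Notch3 differed by -0.12 (SE 0.14, -0.46 to 0.22), with -0.03 and -0.22 within the batches, and its interval ended at a fold of 0.726. A halving of TPM + 1 was thus outside the interval of Notch3 as well. Intervals this wide, from 2 libraries a group in a fit that leaves out the pairing by batch, leave smaller changes undetectable.

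With the replicate block, which compares each BMP6 library with the control of its own batch, the intervals were narrower and no member was called. Jag1 then had an interval from 0.05 to 0.61 (unadjusted p = 0.0267, adjusted p = 0.321 in limma) and Jag2 from 0.01 to 0.55 (unadjusted p = 0.0412, adjusted p = 0.366). Notch1 had -0.02 to 0.56 (adjusted p = 0.420). For Notch2, Notch3 and Dll1 the adjusted p with the block was 0.616, 0.689 and 0.741. An unadjusted p under 0.05 was also more common over all tested entries with the block (12.9%) than without it (3.2%). In voom with the block, the unadjusted p of Notch1, Jag1 and Jag2 were 0.0104, 0.0183 and 0.018 (adjusted p = 0.277, 0.322 and 0.32). Those of Notch2, Notch3 and Dll1 were 0.0804, 0.128 and 0.459, and 12.1% of all tested entries were under 0.05.

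**Figure D2:**
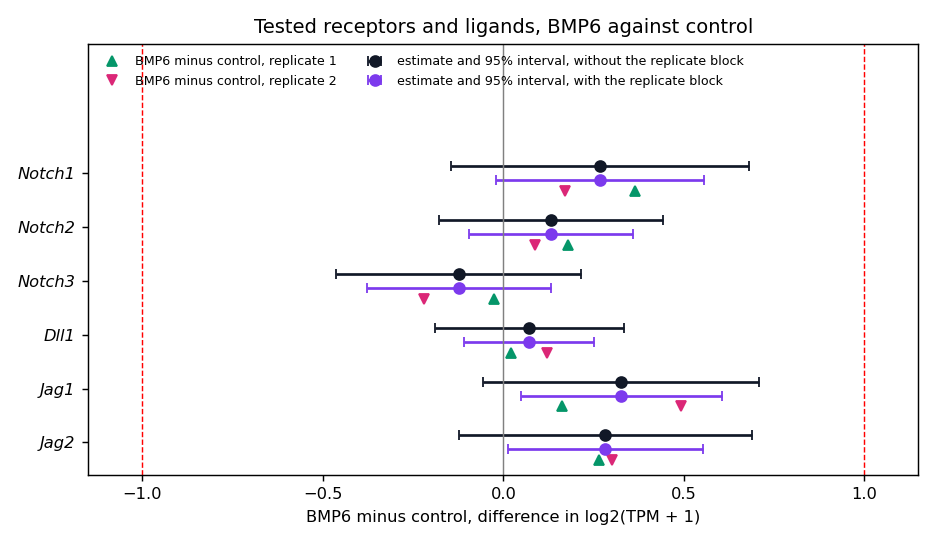
Difference between BMP6 and control in log2(TPM + 1) for the 6 tested members, with its 95% interval without (black) and with (purple) the replicate block and the difference within each batch (triangles). Dashed red lines mark a fold of 2 or 0.5 in TPM + 1. No interval reached a dashed line, and the intervals of Jag1 and Jag2 cleared 0 with the block, from 0.05 and 0.01 upwards, in a fit where 12.9% of all tested entries had an unadjusted p under 0.05.

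Of the 6 tested members, 4 (Notch1, Notch2, Jag1 and Jag2) were higher in both BMP6 libraries than in both controls, as were 16.6% of all tested entries. In the other direction, Notch3 was lower in both, as were 11.6% of all tested entries. The median difference was 0.20 over the 6 members and 0.02 over all tested entries, and 5 of the 6 were above 0. These counts describe 6 genes and were not tested.

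The transcripts were not a second measure. Each member had 1 transcript, and in Notch3, Dll1, Jag1 and Jag2 its TPM was that of the gene. Of the 6 member transcripts tested, 0 were called in limma, where 0.0664% of 16568 transcripts open to a call were, and their unadjusted p ran from 0.140 (Jag1) to 0.552 (Dll1). The entry of Notch2 also holds Gm42820 on the same strand, and the Notch2 transcript alone was at 8.25 and 7.79 TPM after BMP6 and 7.19 and 7.002 TPM in controls, a difference of 0.16. The entry of Notch1 also holds Mir6996, which took 0.101 TPM in control replicate 2 and was listed at 0 elsewhere. The Notch1 transcript alone differed by 0.29.

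Coverage of single exons, scaled so that its mean over a transcript equals the TPM, showed where along each gene these values came from. The last exon, which in the receptors holds the end of the coding region and the 3′ untranslated region, carried 78.0% to 83.1% of the coverage of Notch2 over 41.0% of its length. In Notch3 it carried 59.6% to 68.1% over 25.5% of the length and in Notch1 43.8% to 59.9% over 32.4%. Dll1 was the most even of the tested members, with 19.7% to 24.3% of its coverage in a last exon that makes up 19.0% of its length. In Jag1 and Jag2 the last exon carried 66.7% to 75.3% and 54.4% to 57.7%.

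Notch2 and Notch3 shared a step that Notch1 did not show. Exon 12 of Notch2 had a scaled coverage of 4.54 and 4.96 after BMP6 and 4.70 and 7.03 in controls, and exon 13 had 0.294 and 0.512 after BMP6 and 0.660 and 0.464 in controls. Exon 12 of Notch3 had 2.52 and 2.03 after BMP6 and 2.92 and 3.02 in controls, and exon 13 had 0.655 and 0.777 after BMP6 and 1.42 and 0.444 in controls. In Notch1, exon 12 had 1.29 and 1.33 after BMP6 and 1.38 and 0.973 in controls, and exon 13 had 1.93 and 1.39 after BMP6 and 1.42 and 0.722 in controls. The step was present in all 4 libraries of Notch2 and Notch3. It was noticed in the plot of receptor coverage, and its cause was not tested. Over exons 13 to 33, Notch2 had a scaled coverage of 0.742 to 1.12 and Notch1 of 1.75 to 2.49. The order of these receptors by TPM thus did not hold over those exons.

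**Figure D3:**
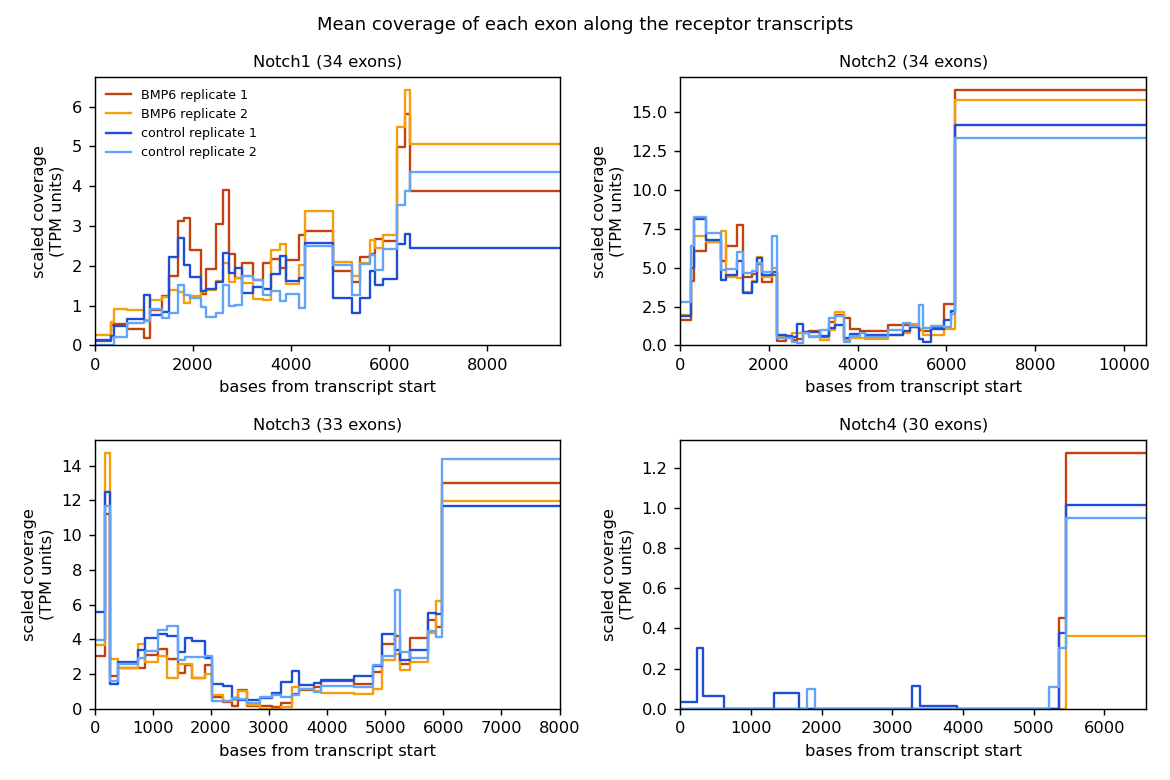
Scaled coverage of each exon (vertical axis, in TPM units) along the transcripts of the 4 receptors (horizontal axis, bases from the transcript start) in the 4 libraries. Notch2 is low from exon 13 to exon 33, Notch3 is low from exon 13 to about exon 20 and climbs again towards its last exon, Notch1 climbs towards its last 3 exons, and nearly all coverage of Notch4 is in exon 30.

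The differences were not even along the receptors. In the last exon of Notch2 both BMP6 libraries (16.4 and 15.8) lay above both controls (14.2 and 13.3), whereas its exons 1 to 12 overlapped at 5.17 and 4.98 after BMP6 and 5.03 and 5.65 in controls. Notch3 showed the reverse order. Its exons 1 to 12 were at 2.89 and 3.07 after BMP6 and 3.98 and 3.56 in controls, and its last exon overlapped at 12.97 and 11.9 after BMP6 and 11.7 and 14.4 in controls. In Notch1 the middle exons, 13 to 33, had 2.49 and 2.36 after BMP6 and 1.75 and 1.81 in controls, and its last exon overlapped between the groups. These regions were chosen after the coverage was seen and were not tested.

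Counted by exon, 17 of the 33 exons of Notch3 (51.5%) were lower in both BMP6 libraries than in both controls, and 2 were higher. Over the 41968 covered exons of tested genes with 1 transcript, 12.2% were lower in this way and 16.2% were higher. Notch1 had 14 of 34 exons higher (41.2%) and 0 lower, and Jag1 had 11 of 26 higher (42.3%) and 0 lower. Jag2 had 8 of 26 higher and 1 lower, Dll1 had 4 of 11 higher and 0 lower, and Notch2 had 3 of 34 higher and 5 lower. Exons of one transcript share their molecules and neighbouring exons share reads, so they are not replicates.

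Exons 15 to 20 of Notch3 had little coverage and did not all differ the same way. Exon 18 had a scaled coverage of 0.142 and 0 after BMP6 and 0.645 and 0.696 in controls, and exon 19 had 0.108 and 0 after BMP6 and 0.922 and 0.790 in controls. Exon 20 had 0.330 and 0.106 after BMP6 and 1.56 and 0.683 in controls. In these 3 exons, in exon 15 (0.189 and 0.485 against 0.624 and 0.604) and in exon 17 (0.189 and 0.200 against 0.517 and 0.353) both BMP6 libraries were below both controls. Few reads stood behind such values, as exon 19 had 1 and 0 rebuilt reads after BMP6 and 8.71 and 7.2 in controls. Exon 16 went the other way, with 1.07 and 1.04 after BMP6 and 0.525 and 0.574 in controls. The exons were singled out after the coverage was seen and were not tested.

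Notch4 was an end without a body. Exon 30 carried 97.0% and 100% of its coverage in BMP6 replicates 1 and 2 and 89.4% and 95% in control replicates 1 and 2, over 17.1% of its length. Only 1 to 9 of its 30 exons had any coverage in a library, from rebuilt read numbers of 92.8 and 24.7 after BMP6 and 81.8 and 69.7 in controls. Dll4 had coverage in exons 9 and 11 in BMP6 replicate 1 and in exon 11 alone in BMP6 replicate 2. Dll3 had it in exon 9 in BMP6 replicate 1 and in exons 7 to 9 in control replicate 1. Whole transcripts of these 3 genes were therefore not seen at this depth. StringTie's list of transcripts covered by reads over their full length named Dll1 and Jag1 in all 4 libraries, Notch1 in all but control replicate 2, Notch2 in both BMP6 libraries and the other 5 members in none.

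**Figure D4:**
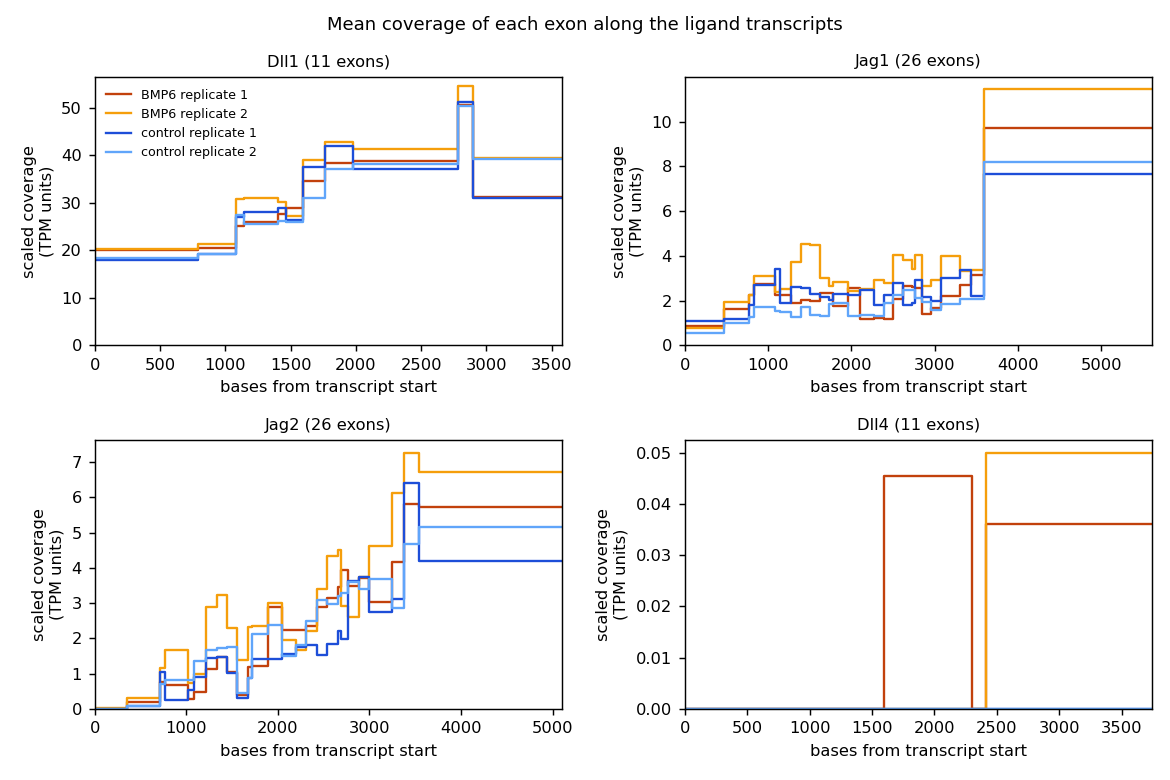
Scaled coverage of each exon (vertical axis, in TPM units, with its own range in each panel) along the transcripts of Dll1, Jag1, Jag2 and Dll4 (horizontal axis, bases from the transcript start) in the 4 libraries. Dll1 is covered along its whole length, Jag1 and Jag2 mostly towards the end, and Dll4 in 2 exons of BMP6 libraries only.

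Some of this coverage could belong to other genes, since the libraries did not keep strand. The last exon of Notch1 shares 1395 bases with 0610009E02Rik and 414 bases with Gm13568 on the other strand. Over its 33 exons that overlap no other gene, Notch1 had 2.00 and 1.86 after BMP6 and 1.5 and 1.4 in controls, a difference of 0.26, with 0.26 and 0.25 within the batches. Notch3 shares 488 bases in exons 25 and 26 with Gm17276 on the other strand, which was at 0.760 and 0.611 TPM after BMP6 and 1.27 and 1.43 TPM in controls (limma, difference -0.48, adjusted p = 1). Without those exons Notch3 differed by -0.12. Notch2 over its 31 exons free of other genes differed by 0.16. Dll4 shares 214 bases with Gm14207 on the other strand, and without that exon it was still listed at 0 in both controls. No other gene overlaps Dll1 in the deposited exons. In GENCODE M39 its transcript is longer, by 148 bases at the 5′ end and 340 at the 3′ end. There, 936 bases of Dll1 align at 100% identity to Fam120b. Fam120b was at 16.8 and 20.1 TPM after BMP6 and 15.3 and 16.8 TPM in controls. How far this makes the level of Dll1 uncertain was not tested. Notch3 aligns to Gm66840 and Gm9978 over 100 bases at 96.0% identity, and Gm9978 was listed at 0 in all libraries but control replicate 1 (0.00958 TPM).

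Around the receptors and ligands, 2 genes of the Notch pathway were called, both among the effectors, where 0.225% of all entries open to a call were called. The list of 58 other pathway genes, grouped by role and drawn up with earlier results of these data known, had 45 tested members, of which 27 were above 0 and 18 below 0, with a median difference of 0.04 beside 0.02 over all tested entries. Hey1, a repressor known as a Notch target, went from 36.7 and 28.1 TPM in controls to 85.3 and 81.3 TPM after BMP6. It rose by a fold of 2.54 (2.00 to 3.23, limma adjusted p = 0.0523). Snai1, a zinc-finger repressor, went from 43.8 and 46.3 TPM in controls to 134 and 103 TPM after BMP6. It rose by a fold of 2.58 (2.03 to 3.28, adjusted p = 0.0511). The calls of both were lost at an adjusted p under 0.05 and without a filter on low values. They were also lost without the trend and with voom on rebuilt reads, none of these with the block. With the replicate block both were called in limma (adjusted p = 0.000102 for Hey1 and 0.000253 for Snai1). In that fit 215 of all tested entries passed the adjusted p, against 32 without the block.

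Of the 10 tested effectors and targets, 7 were above 0 and 5 were higher in both BMP6 libraries than in both controls. Over all 13128 tested entries, 7266 were above 0 and 16.6% were higher in this way. Hes6, which counteracts Hes1 and favours differentiation, had the highest control level of the list. It was at 1372 and 1707 TPM after BMP6 and 1004 and 1258 TPM in controls, a difference of 0.45 (SE 0.15, adjusted p = 1). With the replicate block its adjusted p was 0.000565, past the threshold but short of a doubling. Nrarp, an inhibitor of the Notch intracellular domain that is itself a Notch target, was grouped with receptor trafficking and degradation and not with these effectors. Nrarp was at 4.85 and 5.87 TPM after BMP6 and 3.87 and 3.02 TPM in controls. It differed by 0.52 (SE 0.17, adjusted p = 1, and 0.176 with the block).

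The machinery upstream of the effectors showed no call in either direction, where 0.225% of all entries open to a call were called. For so few genes, no call is near that share. All 9 genes of receptor processing were tested, 6 above and 3 below 0, with a median of 0.05. Psenen, a subunit of gamma-secretase, had the highest control level of that group, with 98.2 and 94.0 TPM after BMP6 and 91.0 and 94.7 TPM in controls. Of the glycosyltransferases that modify the receptors, 3 of 5 were tested, and Rfng, the fringe gene with the most RNA, was at 57.9 and 50.6 TPM after BMP6 and 49.4 and 58.5 TPM in controls. Of the ligases that prepare ligands for signalling, 3 of 4 were tested, and Neurl1a was at 32.5 and 36.8 TPM after BMP6 and 28.4 and 35.3 TPM in controls. Their median differences were 0.01 and 0.12, and the groups overlapped for both named genes.

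Of the genes that traffic and degrade receptors, 8 of 10 were tested, 4 above and 4 below 0, with the largest difference in Nrarp, given above. Nedd4, a ubiquitin ligase, led this group with 223 and 265 TPM after BMP6 and 216 and 218 TPM in controls. Of the nuclear complex, 9 of 12 genes were tested, with a median of 0.00, and Ctbp1, a corepressor, led with 274 and 275 TPM after BMP6 and 291 and 267 TPM in controls. Of the noncanonical ligands, 3 of 6 were tested. Dner, the most abundant of them in controls, was at 1.90 and 3.28 TPM after BMP6 and 2.42 and 2.33 TPM in controls. Mfap5, a microfibril protein that binds Notch, was at 1.09 and 0.548 TPM after BMP6 and 1.37 and 2.03 TPM in controls, a difference of -0.57 (SE 0.22, adjusted p = 1). Both BMP6 values of Mfap5 were below both controls, and with the block its adjusted p was 0.272. Numbl has no entry of its own, since its transcripts are in the entry of Coq8b.

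**Figure D5:**
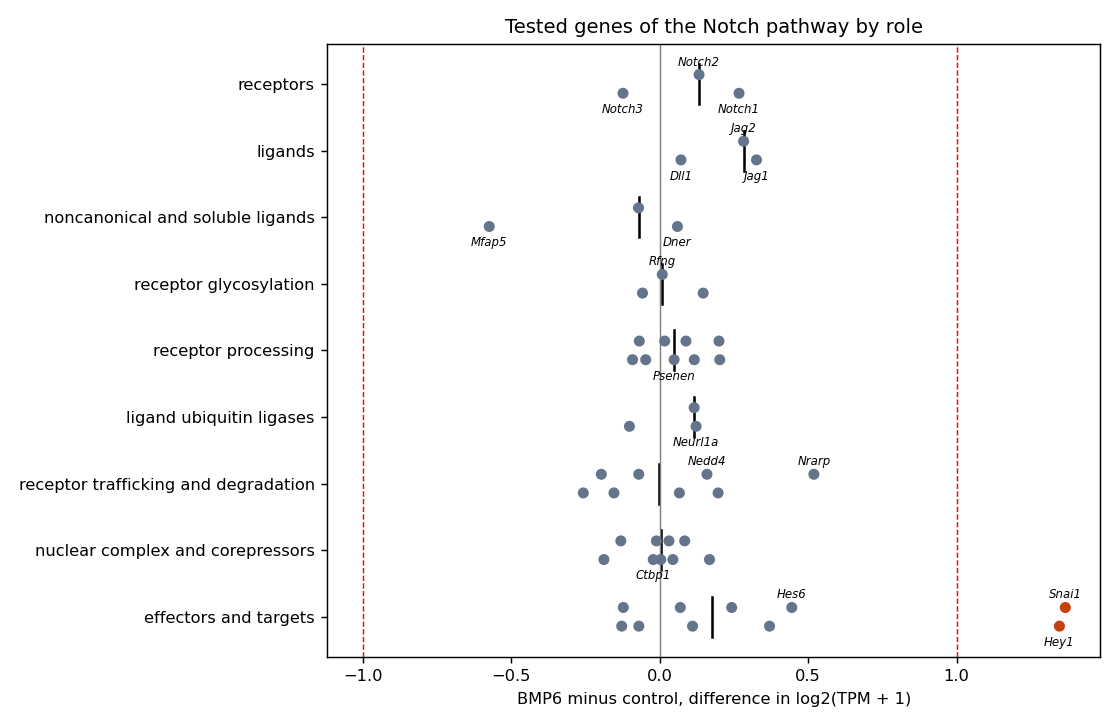
Difference between BMP6 and control in log2(TPM + 1) for each tested receptor, ligand and other pathway gene (points), by role, with the median of each role as a black bar, called genes in orange and dashed red lines at a fold of 2 or 0.5 in TPM + 1. Hey1 (1.35) and Snai1 (1.37) lie past the line, and every receptor and ligand lies between -0.12 and 0.33.

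The tested entries whose pattern over the 4 libraries was nearest to Notch2, by distance between centred log2(TPM + 1) values, were Socs7 (0.0146), Hpf1 (0.0162) and Odf2l (0.0219). Their differences ran from 0.12 to 0.13 beside 0.13 for Notch2. With 4 libraries such closeness is a description only.

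Rebuilt read numbers were 108 to 112 in units of 1000000 a library, and 13002 to 13203 entries a library reached 1 TPM. The 8 markers of muscle stem cells and myoblasts were all tested and none passed the adjusted p, with Myog, a differentiation factor, the highest at up to 5472 TPM and Pax7 at 8.29 to 11.7 TPM. Endothelial cells are a known source of Dll4 and Notch4. Of 7 endothelial markers 2 were tested, their sum was 10.6 to 14.1 TPM after BMP6 and 9.54 to 13.3 TPM in controls, mostly Egfl7 (up to 12.2 TPM), and Kdr was listed at 0 in all 4 libraries. Pericytes are a known source of Notch3. Of 7 markers of pericytes or smooth muscle 4 were tested, their sum was 2919 to 2958 TPM after BMP6 and 3109 to 3262 TPM in controls, mostly Acta2 (up to 3251 TPM), and Myh11 was at most 0.0239 TPM. The lower sum after BMP6 was that of Acta2 (difference -0.12), while Cspg4, Abcc9 and Pdgfrb differed by 0.36, 0.07 and 0.01 (limma, adjusted p = 1 for all 4). Rgs5, below the filter, was at 0.879 and 0.554 TPM after BMP6 and 0.493 and 0.231 TPM in controls. The part of these cells in the values of Dll4, Notch4 and Notch3 was not tested. The lists of immune, fibroblast and Schwann cell markers peaked at 1.68 TPM (Cd68), 240 TPM (Col1a2) and 0.759 TPM (Mbp), and 0 of their tested members passed the adjusted p in limma. The fibroblast list was split. Col3a1 and Col1a1 reached 109 and 62.9 TPM, while Dcn, Lum and Pdgfra reached at most 1.92, 0.270 and 0.164 TPM.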

How the data were processed

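RNA-seq was measured in 4 libraries, 2 after BMP6 and 2 controls, grouped by the labels. The libraries were unstranded, amplified full-length cDNA (Smart-seq2 and Nextera XT) without molecular identifiers. Per the submitters' processing notes and the paper's methods, the authors used STAR 2.7.11a to align read pairs (GRCm39, GENCODE M32), handled them with SAMtools 1.17 and quantified a merged assembly with StringTie 2.2.1. The authors deposited TPM and FPKM per gene, and coverage (the signal column, mean depth per transcript or exon) in files per library. The deposited files used here hold no counts. Rebuilt reads are coverage times length divided by a read length of 100 and count both mates, so their steps cover counting error only in part.

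Entries were tested in limma 3.58.1 (R 4.3.3) on log2(TPM + 1), without a block, with a mean-variance trend, two-sided, over entries with a mean of at least 1 TPM. Calls needed a Benjamini-Hochberg adjusted p under 0.1 and a fold of 2 or more, or of 0.5 or less. Names that the study left out (2483 tested entries) stayed in the fit and out of the calls. On simulated data over 13128 entries, the test passed 33 and 35 of 50 entries changed by 1 and -1 on the log2 scale, 49 and 45 of 50 changed by 2 and -2, and 10 of 12928 unchanged ones. The simulated noise was independent between libraries, and its spread was shuffled over entries. These rates therefore leave out the deviations shared within a batch and the link of spread to level, and do not give the power in these data. Scaled coverage is coverage times the TPM per unit of coverage in its library. Overlaps came from the deposited exons, and near-identical stretches (at least 100 bases at 95%) from blastn against GENCODE M39.

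In the labels the replicate number is a biological batch shared by both groups, so libraries are paired. Deviations of same-numbered libraries had a correlation of 0.563 across entries, and the first component (54.3% of variance) separated the batches.

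The members and lists were chosen with earlier results of these data known. Named were all members, pathway genes past the adjusted p, the 5 with the largest difference and the most abundant of each role, the 3 entries nearest to the top receptor and ligand, the highest marker of each list, and genes that share sequence with a member. Some entries and sequences that this rule names are not reported here. Promoters printed were chosen after their matches were seen. Alternatives were other pseudocounts, filters, scalings, voom, the block and leaving out each library.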

Additional observations from a re-analysis of the deposited data

Results flagged for a closer look

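Of the receptors, ligands and other pathway genes, 15 were below the filter of 1 TPM and outside the test, 14 of them with a value above 0 in at least 1 library. Of these, 4 were higher in both BMP6 libraries than in both controls, as were 11.8% of the 15728 entries below the filter with a value above 0. Dll4 had a mean of 0.0196 TPM after BMP6 and was listed at 0 in both controls. Lfng, the fringe glycosyltransferase, had a mean of 0.861 TPM after BMP6, at 0.753 and 0.969 TPM in BMP6 replicates 1 and 2 against 0.0615 and 0.299 TPM in controls. Hes5, a Notch effector, had a mean of 0.226 TPM after BMP6, from 22.3 and 13.3 rebuilt reads, and was listed at 0 in both controls. Hey2, another effector, had a mean of 0.510 TPM after BMP6, at 0.330 and 0.689 TPM against 0.0860 and 0.237 TPM in controls. None of these differences was tested in the fit with the filter. Without the filter, limma gave Dll4 a difference of 0.03 on the log2(TPM + 1) scale (unadjusted p = 0.00130, adjusted p = 0.637). The SE behind that p, 0.0021, comes from controls listed at 0 and from 5.02 and 4 rebuilt reads after BMP6. So few reads cannot show the spread between libraries.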

How the results depend on the processing

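In all the alternatives tried for the gene and transcript fits, 0 receptors and ligands were called. Tested in these fits, 5 of the 6 kept the direction of their difference in every alternative, and Dll1 turned to -0.0007 without BMP6 replicate 2. Leaving out each library in turn gave Dll1 -0.0007 to 0.14, Notch1 0.12 (without control replicate 1) to 0.42 (without control replicate 2), Jag1 0.19 (without BMP6 replicate 2) to 0.46 (without BMP6 replicate 1) and Jag2 0.16 to 0.40 (without the same libraries). Notch2 then ran from 0.10 to 0.17 and Notch3 from -0.17 to -0.07. The lowest adjusted p of any member in any alternative with the filter was 0.277, for Notch1 in voom with the replicate block, where 3 of the 6, and 12.1% of all tested entries, had an unadjusted p under 0.05. With a mean of at least 5 TPM, Notch2 and Dll1 alone were tested. Genes called higher numbered 24, or 36 with the replicate block, 50 with voom and the block, 13 with voom, 15 with a pseudocount of 5, 15 above a mean of 5 TPM, 12 without the trend, 11 at an adjusted p under 0.05 and 1 without a filter. Genes called lower numbered 0, or 1 with the block, 4 with voom and the block and 1 to 7 when a library was left out (7 without BMP6 replicate 2, 3 without BMP6 replicate 1). The pathway list kept 2 calls except without a filter, without the trend, with voom and at an adjusted p under 0.05, where it had 0. The cause was not tested. The alternatives with exons free of other genes and with the member's own transcript were chosen after seeing the data. Depth limits Notch4, Dll3 and Dll4, which had at most 92.8 rebuilt reads in a library.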
